A study of Mus musculus with 4 samples.

Results

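The small leucine-rich proteoglycans are secreted matrix proteins with a core of leucine-rich repeats, and most of them carry sulfated sugar chains. They bind collagen fibrils and set how thick and how evenly spaced the fibrils become, and several also hold growth factors such as TGF-beta or signal through cell surface receptors. In the heart they are made mainly by fibroblasts and by cells of the valves and vessel walls. The 10 genes described here are biglycan (Bgn), decorin (Dcn), asporin (Aspn), lumican (Lum), fibromodulin (Fmod), Prelp, keratocan (Kera), osteomodulin (Omd), osteoglycin (Ogn) and chondroadherin (Chad). They were taken by symbol from a table of 55401 genes, in which each symbol occurred once. All 10 were found, 9 had enough counts to be tested, and Kera was listed at 0 in every library.

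RNA was sequenced from mouse heart tissue at day 28. The 2 Sham libraries are labelled as thoracotomy without ligation, an opening of the chest that leaves the arteries intact. The 2 MI libraries are labelled as ligation, the operation that stops the blood supply of part of the heart wall and leads to myocardial infarction. The labels give neither strain, genotype, age nor sex, and name the tissue only as heart, although the series' design text contrasts infarcted tissue with normal left ventricle. The question for these genes is whether their transcripts differ after infarction, and by how much.

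The libraries held between 66624106 and 75979320 estimated counts. Low counts pile up at 4, so 4 counts were taken as 1 fragment and a floor of 12 counts per library was used, an assumption that was not tested. Heart muscle markers were abundant in all of them, with Myh6, the main myosin heavy chain of the adult mouse ventricle, between 2708 and 3134 FPKM (fragments per kilobase of gene, scaled to depth, a level corrected for gene length). Both groups held a library that stood apart. In MI replicate 1 the 10 lung markers summed to 267 CPM (the share of counts on a per-million scale, with TMM scaling between libraries), against 0.991, 3.23 and 1.17 in Sham replicates 1 and 2 and MI replicate 2. The 5 skeletal muscle markers summed to 12.05 CPM in MI replicate 1, against 0.676, 1.217 and 0.580 in the same order. In Sham replicate 2 the atrial light chain Myl7 was at 1128 FPKM, against 0.41 to 1.2 FPKM elsewhere, and Myl4, Sln and Bmp10 stood apart in the same way. The whole list of 6 atrial markers summed to 168 and 5589 CPM in Sham and 2187 and 1723 CPM in MI, most of it Nppa, a natriuretic peptide gene at 151 and 3515 FPKM in Sham and 2632 and 1855 FPKM in MI. In Sham replicate 2, 5 fat cell markers summed to 169 CPM, against at most 0.632 elsewhere. The part these transcripts play in the values below was not tested. Counts of genes are also given with each of these 2 libraries dropped.

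Proteoglycan transcripts were more abundant in the MI libraries. Summed over the 10 genes, the level was 104.9 and 171.2 FPKM for Sham replicates 1 and 2, and 440.2 and 308.9 FPKM for MI replicates 1 and 2. The groups did not overlap, and the mean was 138 ± 46.9 FPKM (SD, n = 2) in Sham and 375 ± 92.8 FPKM (SD, n = 2) in MI. The log2 difference of the sum was 1.46 on FPKM and 1.16 on TMM-scaled CPM. With 2 libraries against 2, an exact permutation test (2-sided) cannot go below 0.333, and it gave that value. In bulk tissue, more cells that make a transcript and more transcript per cell cannot be told apart. For 8 of the 9 genes tested the groups did not overlap and MI was higher, which was true of 24.9% of all 18475 genes tested on CPM and 39.1% on FPKM, and for 0 members was MI the lower group without overlap (21.9% of all genes on CPM). In edgeR's quasi-likelihood test 6 of the 9 were higher at an unadjusted p under 0.05, against 7.12% of all genes, and 0 were lower, against 4.51%. Adjusted over all genes tested, 0 members passed 0.05, as did 0 of all genes (0% called, where 1316 genes were higher and 834 lower unadjusted, and DESeq2 called 635), with adjusted p between 0.185 for Aspn and 0.854 for Chad. DESeq2 called 6 members higher at an adjusted p under 0.05, against 2.58% of the genes it gave an adjusted p, and 0 lower, against 1.49%. In limma on log2(FPKM + 1), 8 had an unadjusted p under 0.05, against 11.8% of all genes, and 0 passed after adjustment. The median log2 difference of the 9 genes was 1.42, against 0.003 over all genes tested. Scaling moved the background: the median of all genes was 0.11 in limma on log2(FPKM + 1), which has no TMM scaling, and 0.14 with mitochondrial transcripts removed. Genes that were higher made up 61.2% of those with an unadjusted p under 0.05 in edgeR, 86.6% in limma and 82% without mitochondrial transcripts. The direction of every tested member was the same in these 3 fits.

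**Figure D1:**
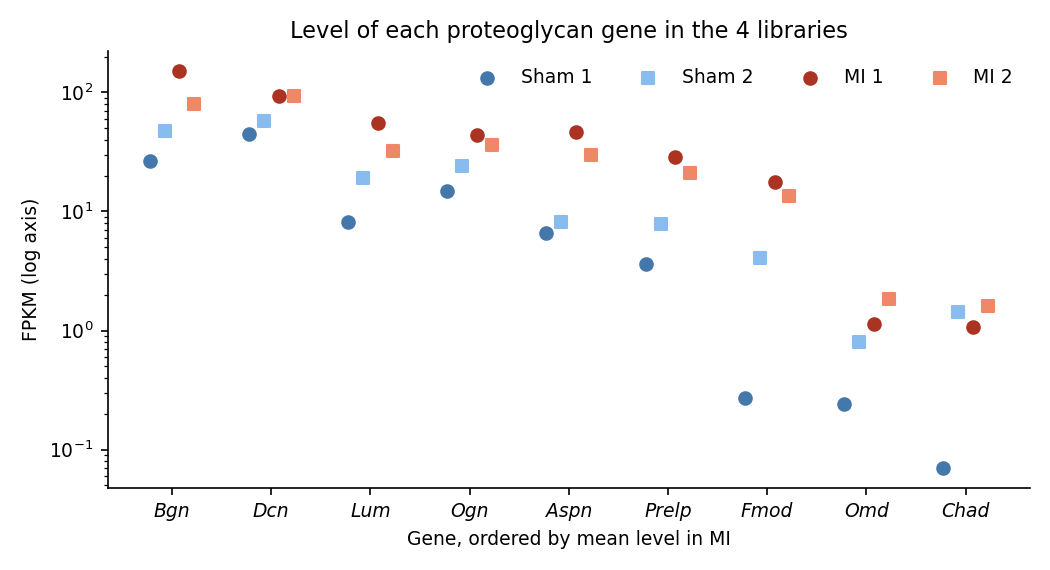
FPKM of the 9 expressed genes (log axis) in each library, Sham in blue and MI in red, with replicate 1 as circles and replicate 2 as squares. The MI points lie above the Sham points for every gene shown except Chad, and the Sham points of Fmod and Chad stand far apart.

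Biglycan and decorin, the most abundant members, carry chondroitin or dermatan sulfate chains and both bind collagen and TGF-beta. Free biglycan is also known as a ligand of the innate receptors TLR2 and TLR4. Bgn (ENSMUSG00000031375, chromosome X, 73483602 to 73495933, GRCm38) was at 26.6 and 47.9 FPKM in Sham and 153 and 79.7 FPKM in MI. Every MI value exceeded every Sham value, although the MI libraries differed between themselves by 1.71-fold on the CPM scale. The log2 difference was 1.42 ± 0.36 (SE), a 2.67-fold higher level, with an unadjusted p of 0.0121 in edgeR and an adjusted p of 0.00345 in DESeq2. Without MI replicate 1, the library with lung transcripts, the log2 difference was 0.99 and edgeR's unadjusted p was 0.0561. Dcn (ENSMUSG00000019929, chromosome 10, 97479609 to 97518143) was at 44.4 and 58.0 FPKM in Sham and at 92.7 and 92.9 FPKM in MI. The MI libraries were nearly level, and the log2 difference was 0.65 ± 0.16, the smallest of the 9 in edgeR and DESeq2 but not in limma on log2(FPKM + 1), where those of Chad and Omd were smaller (unadjusted p = 0.00968 in edgeR, adjusted p = 0.0218 in DESeq2). It was 0.57 without MI replicate 2, where edgeR's unadjusted p was 0.0593. The ratio of Bgn to Dcn in FPKM was 0.598 and 0.825 in Sham, and 1.65 and 0.858 in MI. Bgn exceeded Dcn in MI replicate 1 alone, and the ratio in MI replicate 2 lay just above the higher Sham value. The log2 difference of the ratio was 0.76 (exact permutation p = 0.333, the smallest possible), 0.29 without MI replicate 1 and 1.23 without MI replicate 2.

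Asporin, the third gene of the same class, has a run of aspartates in place of the usual sugar attachment site and is known to bind collagen and TGF-beta. Its Sham values lay close together and far below both MI values. Aspn (ENSMUSG00000021388, chromosome 13, 49544443 to 49567565) was at 6.61 and 8.09 FPKM in Sham and 46.6 and 29.8 FPKM in MI. The log2 difference was 2.15 ± 0.21, a 4.43-fold higher level. It had the smallest p of the members in each tool, with an unadjusted p of 0.000171 in edgeR and an adjusted p of 3.29e-15 in DESeq2. With any 1 library left out the difference stayed between 1.89 and 2.38. The ratio of Aspn to Dcn within a library was 0.149 and 0.139 in Sham and 0.503 and 0.320 in MI. The groups did not overlap, and the ratio was 2.79-fold higher in MI (exact permutation p = 0.333, the smallest possible).

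Aspn belongs to a row of 4 related genes that lie on the same strand of chromosome 13 within 119692 bases, in the order Ecm2, Aspn, Omd and Ogn. Their log2 differences between MI and Sham were 1.21 ± 0.21, 2.15 ± 0.21, 1.35 ± 0.62 and 0.85 ± 0.21, and whether they differ from each other was not tested. Osteoglycin is a small member of the family found in many connective tissues. Ogn (ENSMUSG00000021390, 49608046 to 49624501) was at 14.9 and 23.9 FPKM in Sham and 44.3 and 36.3 FPKM in MI, so the groups did not overlap. Its unadjusted p was 0.0109 in edgeR, and its adjusted p was 0.0283 in DESeq2. Without MI replicate 1 the log2 difference was 0.79, with an unadjusted p of 0.0642 in edgeR. Osteomodulin, best known from bone, was far less abundant. Omd (ENSMUSG00000048368, 49582462 to 49592822) was at 0.24 and 0.80 FPKM in Sham and 1.14 and 1.83 FPKM in MI. The lowest Sham library had 44 counts, the MI values again exceeded the Sham values, and edgeR's unadjusted p was 0.0844. The log2 difference was 0.78 without Sham replicate 1 and 2.31 without Sham replicate 2. Ecm2, an extracellular matrix protein with leucine-rich repeats, was at 1.91 and 2.95 FPKM in Sham and 6.43 and 6.54 FPKM in MI (unadjusted p = 0.00244 in edgeR). All 3 members in the row lie inside Cenpp, a centromere gene on the other strand, and Aspn shares 7 exon bases with it. No source says whether strand was used in counting. Cenpp was at 0.26 to 0.62 FPKM, near the Sham level of Omd, so the value of Omd is uncertain.

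The bases before the starts of these 3 members are shown because the genes are neighbours, and those of Fmod and Prelp because these lie on chromosome 1 and had large differences. Promoter sequences were found in RefSeq's table (GRCm38.p6) for 8 of the 10 members, all but Dcn and Lum. Each line gives the 250 bases before RefSeq's start on the gene's own strand, 5′ to 3′, with motif matches in capitals. For Prelp and Ogn this start differs from that of the gene coordinates printed here.
Aspn: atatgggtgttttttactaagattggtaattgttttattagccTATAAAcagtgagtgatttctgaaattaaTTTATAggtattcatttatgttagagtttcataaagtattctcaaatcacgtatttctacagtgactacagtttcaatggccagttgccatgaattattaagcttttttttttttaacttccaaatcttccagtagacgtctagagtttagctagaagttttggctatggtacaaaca
Omd: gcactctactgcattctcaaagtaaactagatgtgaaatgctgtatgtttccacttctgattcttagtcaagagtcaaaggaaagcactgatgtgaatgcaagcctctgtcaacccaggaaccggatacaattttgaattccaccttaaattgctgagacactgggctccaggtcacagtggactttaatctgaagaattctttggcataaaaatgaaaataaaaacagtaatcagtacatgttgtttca
Ogn: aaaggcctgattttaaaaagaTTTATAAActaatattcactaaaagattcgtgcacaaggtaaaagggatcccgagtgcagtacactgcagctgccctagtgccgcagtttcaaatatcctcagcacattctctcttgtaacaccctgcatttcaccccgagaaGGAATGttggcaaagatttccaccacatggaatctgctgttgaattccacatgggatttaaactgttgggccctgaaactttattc
Fmod: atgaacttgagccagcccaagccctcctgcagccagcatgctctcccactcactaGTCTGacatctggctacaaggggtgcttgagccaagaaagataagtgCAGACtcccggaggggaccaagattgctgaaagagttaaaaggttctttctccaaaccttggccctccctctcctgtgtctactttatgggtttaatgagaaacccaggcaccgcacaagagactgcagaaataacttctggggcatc
Prelp: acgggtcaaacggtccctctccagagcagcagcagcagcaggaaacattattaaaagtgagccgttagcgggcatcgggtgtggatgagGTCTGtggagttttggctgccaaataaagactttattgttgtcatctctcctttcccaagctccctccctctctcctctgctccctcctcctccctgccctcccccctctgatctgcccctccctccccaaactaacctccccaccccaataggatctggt
These stretches are chr13:49544193-49544442 for Aspn, chr13:49582212-49582461 for Omd, chr13:49607765-49608014 for Ogn and chr1:134037004-134037253 for Fmod, all on the plus strand, and chr1:133921402-133921651 on the minus strand for Prelp. The letters searched, on both strands, were TATAAA (the core of a TATA box), TGACTCA (AP-1), CATTCC (TEAD) and CAGAC (the core of a SMAD site). TATAAA occurred in 3 of the 8 members' stretches (Aspn, Ogn and Chad) and in 12.4% of the 32851 stretches in the table. In Aspn the matches began 207 and 178 bases before the start, and in Ogn a plus and a minus match overlap, at 227 and 229 bases. In Chad the match began 28 bases before the start. CAGAC was in 2 of the 8 (Fmod and Prelp) and in 42.2% of all, CATTCC in 1 (Ogn) and in 12.6% of all, and TGACTCA in 0 and in 4.46% of all. Of the 5 stretches printed, that of Omd holds none of these letters. Guanine and cytosine made up 30.0% of the Aspn stretch, 38.4% of Omd, 42.0% of Ogn, 51.2% of Fmod and 55.6% of Prelp, against a median of 52.4%. These matches describe letters only.

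Lumican and fibromodulin, which carry keratan sulfate, are known to compete for a binding site on type I collagen. Lum (ENSMUSG00000036446, chromosome 10, 97565128 to 97572703) was at 8.22 and 19.2 FPKM in Sham and 55.5 and 32.4 FPKM in MI. The groups did not overlap, and the log2 difference was 1.47 ± 0.42 (unadjusted p = 0.0176 in edgeR, adjusted p = 0.0110 in DESeq2). Without MI replicate 1 it was 1.14, with an unadjusted p of 0.0919 in edgeR. Fmod (ENSMUSG00000041559, chromosome 1, 134037254 to 134048277) was at 0.27 and 4.04 FPKM in Sham and 17.6 and 13.4 FPKM in MI. It had the largest log2 difference of the members, 2.68 ± 1.12, but also a 13.2-fold gap between the Sham libraries on the CPM scale, and only 0.585% of all genes tested had a gap between the Sham libraries as large. Its unadjusted p in edgeR was 0.0632. The difference was 1.79 without Sham replicate 1 (adjusted p = 0.0777 in edgeR) and 5.51 without Sham replicate 2, the fit in which Fmod passed the adjusted threshold (adjusted p = 0.0350 in edgeR). The groups did not overlap, with 72 and 970 counts in Sham and 4644 and 3684 in MI. The ratio of Fmod to Lum was 0.0329 and 0.211 in Sham and 0.318 and 0.415 in MI, with an exact permutation p of 0.333, the smallest possible. Its log2 difference was 2.12, with 0.78 without Sham replicate 1 and 3.47 without Sham replicate 2.

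Prelp, a relative of these 2 genes with a stretch rich in arginine and proline that binds heparan sulfate, is known as a link between basement membranes and collagen. Prelp (ENSMUSG00000041577, chromosome 1, 133910304 to 133921414) was at 3.65 and 7.83 FPKM in Sham and 28.6 and 21.1 FPKM in MI. Both MI values were well above the Sham values. The log2 difference was 1.91 ± 0.35, a 3.76-fold higher level, with an unadjusted p of 0.00296 in edgeR and an adjusted p of 1.05e-05 in DESeq2. It stayed between 1.51 and 2.46 with any 1 library left out. The antisense gene Gm15851, which shares 350 exon bases with Prelp, was listed at 0 in all libraries. Keratocan, a keratan sulfate proteoglycan of the cornea, was listed at 0 in all libraries as well. Kera lies on chromosome 10 (97606879 to 97613692), next to Lum, and a count of 0 allows up to 12 counts, or 0.144 to 0.189 CPM by library. Epyc, the next family gene along, had 0 and 80 counts in Sham and 19 and 34 in MI.

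Chondroadherin is a cartilage protein without the usual sugar chains that binds collagen and integrins. Chad (ENSMUSG00000039084, chromosome 11, 94565047 to 94569127) was at 0.07 and 1.44 FPKM in Sham and 1.08 and 1.6 FPKM in MI. Sham replicate 2 lay between the MI libraries, and Sham replicate 1 had 10 counts, under the floor of 12. The log2 difference of 0.69 ± 1.19 (unadjusted p = 0.588 in edgeR) turned to -0.23 without Sham replicate 1 and became 3.86 without Sham replicate 2; its direction rested on which Sham library was used. Chad also lies inside Acsf2, a gene on the other strand at 7.42 to 9.61 FPKM. They share 0 exon bases, but without knowledge of strand in the counting the value of Chad is uncertain.

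**Figure D2:**
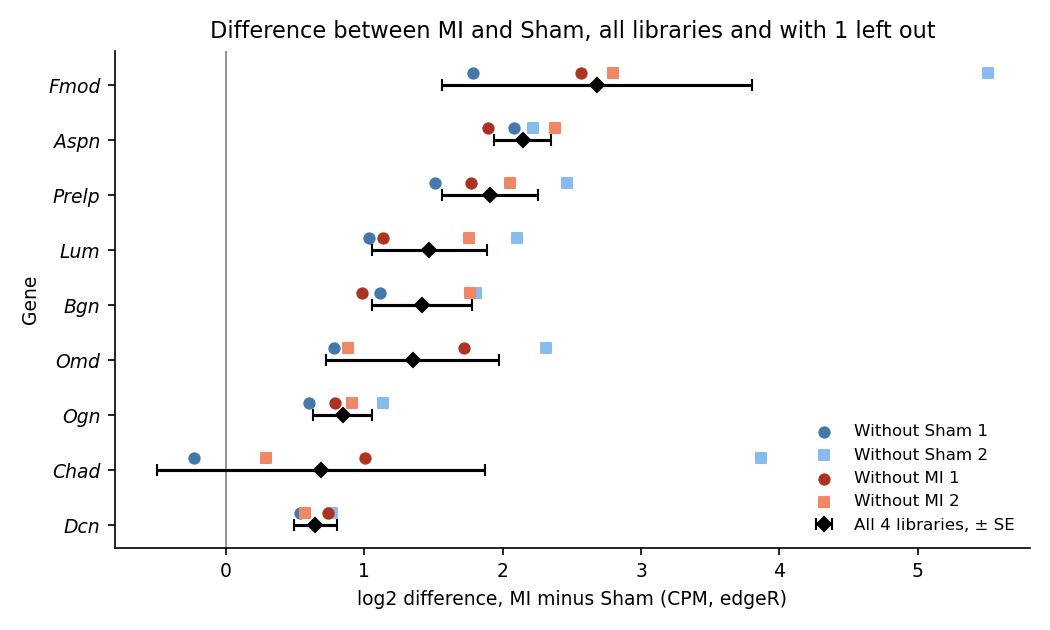
Log2 difference between MI and Sham for each gene, with black diamonds and bars for the value and SE from all 4 libraries and coloured points for the value with 1 library left out. Dcn and Aspn move least, whereas leaving out Sham replicate 2 moves Fmod to 5.51 and Chad to 3.86.

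Apart from Chad, each tested member kept its direction with any 1 library left out, while the number past the unadjusted threshold moved. At an unadjusted p under 0.05 in edgeR, 3 members (Dcn, Prelp and Aspn) were higher without MI replicate 1, where 2.23% of all genes were. The count was 5 without MI replicate 2 (4.02% of all genes), 7 without Sham replicate 1 (9.67%) and 9 when Sham replicate 2 was dropped (9.72%), and 0 were lower in any of these fits. Each such fit takes the lone library of a group to vary like the other group. The member median was 1.14 without MI replicate 1, 1.76 without MI replicate 2, 1.04 without Sham replicate 1 and 2.22 with Sham replicate 2 dropped. With both libraries that stood apart dropped, leaving Sham replicate 1 against MI replicate 2, all 9 genes were higher in MI, with a median of 1.95 on the log2 scale and no test, a comparison chosen after seeing the data.

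For some genes, but not all, the share of the proteoglycan pool did not overlap between the groups. Dcn made up 42.4% and 33.9% of the summed FPKM in Sham and 21.1% and 30.1% in MI. Ogn made up 14.2% and 14.0% in Sham and 10.1% and 11.7% in MI. The MI shares of both genes lay below the Sham shares. Aspn went the other way, from 6.30% and 4.73% in Sham to 10.6% and 9.63% in MI. The shares of Prelp (3.48% and 4.57% in Sham, 6.502% and 6.82% in MI) and Fmod (0.257% and 2.36% in Sham, 4.005% and 4.35% in MI) were also higher in both MI libraries. The shares of Bgn, at 25.3% and 27.97% in Sham and 34.7% and 25.8% in MI, and of Lum, Omd and Chad overlapped between groups. Ranked by mean FPKM, Dcn came before Bgn in Sham and Bgn before Dcn in MI, but the gap between them in MI (116 ± 51.6 against 92.8 ± 0.16 FPKM, SD, n = 2) was smaller than the spread of Bgn. These shares were not tested.

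**Figure D3:**
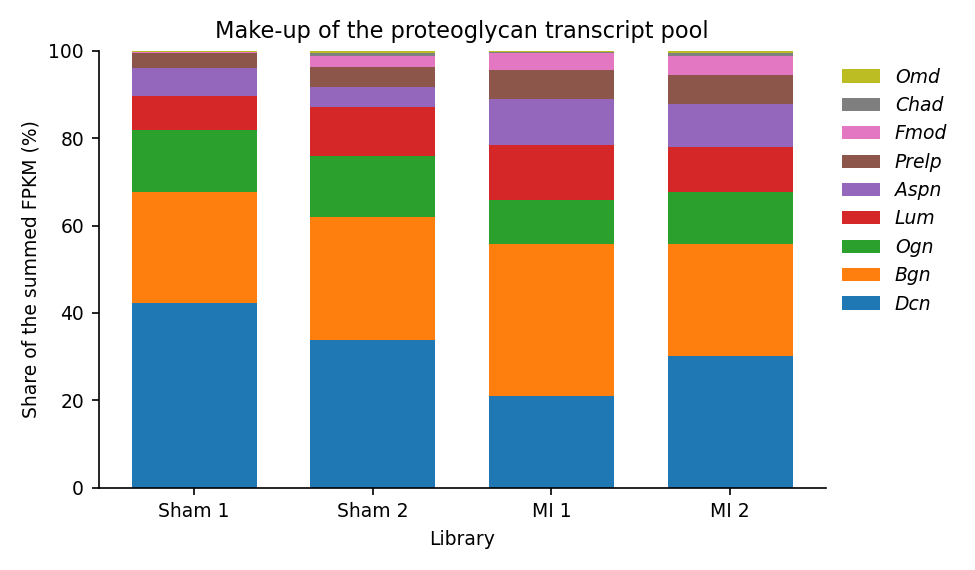
Share of each gene in the summed FPKM of the proteoglycan genes, by library, as stacked bars from 0 to 100%. The Dcn share is largest in Sham replicate 1 (42.4%) and smallest in MI replicate 1 (21.1%), while the Aspn, Prelp and Fmod shares are larger in both MI libraries.

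Collagens are the main partners of these proteins. At an unadjusted p under 0.05 in edgeR, 7.12% of all genes tested were higher and 4.51% lower. These shares are the background for the list counts below. Of 11 collagen partner genes tested, 10 were higher and 0 lower at an unadjusted p under 0.05 in edgeR, with a median log2 difference of 2.08 (8 higher without MI replicate 1 and 11 without Sham replicate 2). Col1a1 and Col3a1, the main chains of type I and type III collagen, had 2.32 ± 0.47 and 2.35 ± 0.37, and Col6a1, of the beaded collagen VI that biglycan and decorin bind, had 1.57 ± 0.31. Col12a1, a collagen that sits on fibril surfaces, had the smallest p (4.01 ± 0.29), followed by Col6a3 (1.75 ± 0.21) and Col5a2 (2.08 ± 0.26). Proteoglycan transcript per unit of Col1a1 plus Col3a1 was 4.88 and 5.15 in Sham and 1.94 and 3.13 in MI, all as ratios of FPKM. The Sham libraries were nearly equal and both MI libraries were lower, at 0.490 times the Sham level (exact permutation p = 0.333, the smallest possible). The log2 difference of this ratio was -1.03, and -0.68 without MI replicate 1.

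**Figure D4:**
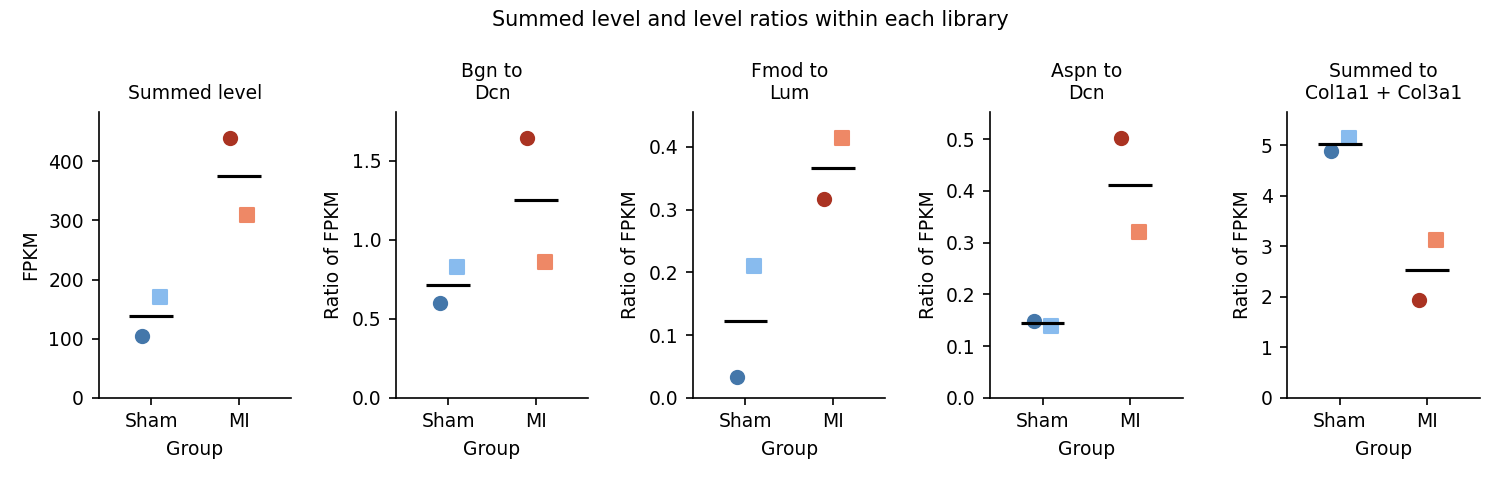
Summed FPKM of the proteoglycan genes and 4 ratios of FPKM within each library, with points for libraries (replicate 1 circles, replicate 2 squares) and lines for group means. The summed level is higher and its ratio to Col1a1 plus Col3a1 is lower in both MI libraries.

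The median difference of the fibroblast markers was smaller than that of the members, while several markers of tendon, cartilage and valve had large differences. Pdgfra, a receptor that marks fibroblasts, was at 2.57 and 2.77 FPKM in Sham and 3.63 and 3.99 FPKM in MI, a log2 difference of 0.30 ± 0.15. Over the 6 fibroblast markers the median was 0.46, and 2 (Lamc1 and Col1a2, which is also a collagen partner) were higher at an unadjusted p under 0.05 (1 without MI replicate 1 and 3 without Sham replicate 2). Their summed level was 346 and 432 CPM in Sham and 1069 and 697 CPM in MI. Of this, Col1a2 gave 75.9 and 113.7 CPM in Sham and 632.5 and 289.6 CPM in MI. Its log2 difference was 2.28 ± 0.44. Markers of tendon, cartilage and valve had a median of 2.94, and 5 of the 10 tested were higher at an unadjusted p under 0.05 and 0 lower (4 and 2 without Sham replicate 1, 8 and 0 without Sham replicate 2, 2 and 0 without MI replicate 1). Comp, a cartilage matrix protein, was at 0.06 and 4.13 FPKM in Sham and 39.3 and 22.6 FPKM in MI, with a wide gap between the Sham libraries as for Fmod. Tnmd, a tendon protein, had 0 counts in both Sham libraries and 80 and 168 in MI, and Scx, a transcription factor of tendon cells, had a log2 difference of 0.76 ± 0.25. Cnmd, a relative of Tnmd, was lower in both MI libraries, at -1.19 ± 0.67, and Cilp2 had -0.53 ± 1.66. Col2a1, the collagen that defines cartilage, was near the floor in all libraries but MI replicate 1, at 0, 8, 104 and 14 counts. Of the 6 heart muscle markers, Myh6 (-0.37 ± 0.18) and Tnnt2 (-0.39 ± 0.17) were lower on CPM in both MI libraries, as were 21.9% of all genes. Of these 6 markers 0 passed the unadjusted threshold. Summed in CPM, the heart muscle markers were lower in both MI libraries, at 46870 and 44500 in Sham and 35780 and 39540 in MI. Summed in FPKM, they overlapped between groups, at 8376 and 9371 in Sham and 9298 and 8620 in MI. All 5 endothelial markers were higher on CPM in both MI libraries, as were 24.9% of all genes. Their median was 0.39, and 2 passed. The part these cells play in the members' values was not tested.

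Among the 8 other genes of the family, 6 were tested, of which 2 (Ecm2 and Chadl) were higher and 0 lower at an unadjusted p under 0.05, with a median of 0.54. Podn, podocan, had a negative log2 difference, -1.21 ± 0.67 (unadjusted p = 0.1345 in edgeR). It was at 4.03 and 18.9 FPKM in Sham and 6.68 and 4.58 FPKM in MI, so the groups overlapped. Sham replicate 2 was far above the other libraries, and Sham replicate 1 was below both MI libraries in FPKM. Without Sham replicate 1 the list had 1 gene higher and 2 lower, and with either MI library dropped it had 1 higher. Tsku, tsukushi, was at 0.27 to 1.48 FPKM and had 0.21 ± 0.76, and Chadl, a relative of Chad, had 24 and 30 counts in Sham and 80 and 90 in MI. Of the enzymes that build and sulfate chondroitin and dermatan sulfate, 4 of 21 tested were higher and 0 lower, with a median of 0.34. Of all genes, 7.12% were higher in that fit. The count was 7 with mitochondrial transcripts removed and in limma on log2(FPKM + 1), and 8 on log2(FPKM + 0.1). The share of all genes that were higher also rose, to 10.6%, 11.8% and 12%. In edgeR these were the chondroitin polymerizing factor Chpf (0.76 ± 0.22), the epimerase relative Dsel (0.89 ± 0.26) and the sulfotransferases Ust (1.07 ± 0.32) and Chst12 (1.20 ± 0.36). Without MI replicate 1 there were 0 (2 if MI replicate 2 was dropped, 6 if Sham replicate 2 was, and 5 if Sham replicate 1 was, with 1 lower). The linkage enzymes B3gat3 and Fam20b, the other abundant members of that list, had -0.16 ± 0.14 and -0.20 ± 0.12 (0.05 and 0.02 on log2(FPKM + 1)). Of 6 keratan sulfate enzymes tested 1 was higher and 0 lower, the sulfotransferase Chst1 (0.94 ± 0.36), and the abundant galactosyltransferases B4galt1 and B4galt4 had -0.15 ± 0.17 (0.08 on log2(FPKM + 1)) and 0.21 ± 0.20. In this list 0 were higher and 1 lower without MI replicate 1.

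Of 21 tested growth factors and receptors that these proteins bind, 5 were higher and 1 lower at an unadjusted p under 0.05, and the median was 0.18. Of all genes tested, 7.12% were higher and 4.51% lower at this threshold in edgeR. Tgfb3 (1.58 ± 0.27), Tgfb1 (0.64 ± 0.14) and the decorin uptake receptor Lrp1 (0.57 ± 0.14) had the smallest p. The abundant receptors Kdr and Itgb1 had 0.49 ± 0.17 and 0.11 ± 0.24. Of the biglycan receptors, named after their values were seen, Tlr2 had 0.41 ± 0.36, Tlr4 1.14 ± 0.77, their co-receptor Cd14 -0.62 ± 0.18, P2rx4 -0.29 ± 0.16 and P2rx7 0.99 ± 0.29. Cd14 and P2rx7 had an unadjusted p under 0.05 in edgeR. In limma on log2(FPKM + 1) the unadjusted p was 0.128 for Cd14 and 0.0218 for P2rx7. In that fit the list had 6 higher and 0 lower, where 11.8% of all genes were higher. Without MI replicate 1 the list had 2 higher and 2 lower, without Sham replicate 1 it had 6 and 2, and with Sham replicate 2 dropped 6 and 0. Of 14 proteases and propeptidase enhancers tested, 3 were higher and 2 lower, with a median of -0.12 (4 and 1 in limma on log2(FPKM + 1)). Bmp1, which trims the propeptide of biglycan, had 0.99 ± 0.20, Mmp2 had 1.61 ± 0.21 and the collagen propeptide enhancer Pcolce had 0.66 ± 0.24. The proteoglycan-cleaving Adamts4 was lower, at 0.89 and 0.76 FPKM in Sham and 0.18 and 0.23 FPKM in MI (log2 difference -2.21 ± 0.34), and the abundant Htra1 had -0.42 ± 0.20. With Sham replicate 1 dropped 2 of this list were higher and 3 lower, with Sham replicate 2 dropped 5 and 2, and with MI replicate 1 dropped 2 and 2. Of 22 other proteoglycans tested, 6 were higher and 1 lower, with a median of 0.21 (7 and 0 in limma on log2(FPKM + 1)). The basement membrane perlecan Hspg2 had 0.55 ± 0.15, syndecans Sdc1 and Sdc4 had 1.23 ± 0.29 and -1.05 ± 0.31, and the abundant glypican Gpc1 and serglycin Srgn had 0.06 ± 0.13 and 0.13 ± 0.26. Without MI replicate 1, 0 were higher and 0 lower, and with Sham replicate 2 dropped 5 and 2.

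**Figure D5:**
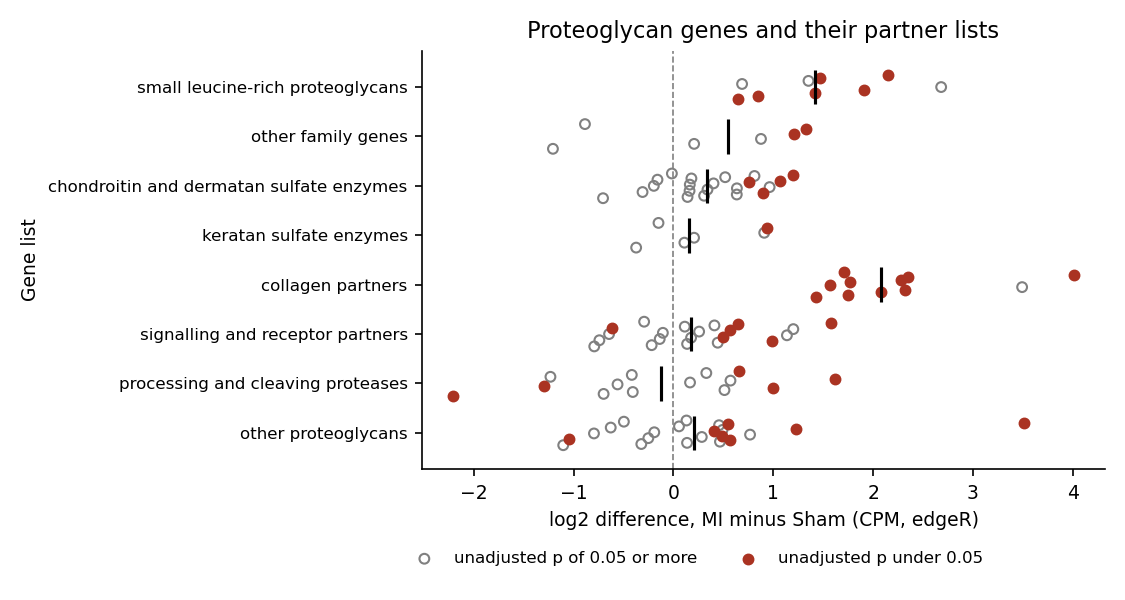
Log2 difference between MI and Sham for each gene tested in the proteoglycan list and 7 partner lists, with filled points at an unadjusted p under 0.05 in edgeR and black lines at the medians. The proteoglycans and the collagen partners lie to the right, with medians of 1.42 and 2.08, and the medians of the other lists lie between -0.12 and 0.54.

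The mean profile of the 9 tested members over the 4 libraries, as centred log2 CPM, was -1.505 and -0.16 in Sham and 0.88 and 0.79 in MI. The 5 other genes nearest to it among all genes tested were Kif4, Prrt4, Itih5, Gpr1 and Camkk1, with root mean square distances of 0.0906 to 0.130. Gpr1 had 0 and 10 counts in Sham, under the floor of 12, and 30 and 23 in MI. Kif4, Prrt4 and Camkk1 had only 22, 24 and 34 counts in Sham replicate 1. Of the members, Prelp and Lum were nearest to their own mean profile, at 0.218 and 0.219, and Fmod was farthest, at 1.25. With only 4 libraries such likeness is a description.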

How the data were processed

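Poly(A) RNA of heart tissue was sequenced as strand-marked paired-end libraries, 2 Sham and 2 MI, per the labels' protocols. The deposited table gives estimated counts and FPKM for each gene and library. The deposited estimated counts are whole and were used unchanged, and the authors' FPKM are scaled for length and depth, per the file headers. The submitters' processing notes name StringTie 1.3.4d, HISAT2 2.0.4, UMI-tools and cutadapt 1.9, without roles. Genome build, strand use and use of molecular identifiers in counting: not given in the sources used here. All 10 members have the start and end of GENCODE M21 (GRCm38), as do 93.8% of the table's genes. Low counts pile up at 4 (1148 to 1174 genes, against 284 to 331 at 3). Floors cover counting error only.

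Genes were filtered (filterByExpr, min.count 10, min.total.count 15), scaled by TMM (factors 0.877 to 1.15) and tested with edgeR 4.0.16 (R 4.3.3), 2-sided, with Benjamini-Hochberg adjustment over all genes tested. CPM are TMM-scaled. Each standard error was derived from edgeR's fit, as the size of the log2 difference divided by the square root of its test statistic (F). It therefore covers variation between libraries as well as counting error. DESeq2 1.42.0 and limma 3.58.1, on log2(FPKM + 1), were alternatives. The steps were tested on simulated data. No label says that the replicates are separate animals; p-values therefore measure only how these libraries vary, and that may be technical variation. The members, lists and tests were chosen with earlier results of these data known. Named partner genes are up to 3 of highest mean FPKM and up to 3 of smallest p in each list, and others are named as marker genes, as neighbours or overlapping genes, to spell out a count, or as said in the text.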

Additional observations from a re-analysis of the deposited data

How the results depend on the processing

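Over all genes tested, DESeq2 called 635 genes where edgeR called 0. With 1 library left out edgeR called 0 to 14 genes, the members higher at an unadjusted p under 0.05 numbered 3 to 9, and the member median ranged from 1.04 to 2.22. The log2 difference of Chad was reversed, at -0.23, without Sham replicate 1 and was 3.86 without Sham replicate 2, and the cause was not tested. Under other scalings, filters and tools 6 to 8 members were higher at an unadjusted p under 0.05, 8 had both MI libraries above both Sham libraries, and the median ranged from 1.40 to 1.63. With the replicate number as a replicate block, the count was 8 members (Fmod and Omd added), against 5.42% of all genes in that fit, and 0 genes were called over the whole table. Same-numbered libraries did not deviate together (correlation -0.056 across genes), so the numbers need not pair the samples. The precision is limited by 2 libraries per group, and for Chad and Omd also by low counts.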
